A study of Mus musculus with 23 samples.

Results

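The core cardiac transcription factors are the DNA-binding proteins that specify heart muscle, and 10 of them were taken by gene symbol from the 41388 gene windows of the study: Gata4, Gata6, Nkx2-5, Tbx5, Tbx20, Mef2a, Mef2c, Hand1, Hand2 and Isl1. The rule that picked them used symbols and no measured value, but earlier results of these data were known when they were chosen. All 10 have a window of 3 kb at the transcription start site in both the heart and the spleen table, and 8 of the 10 held sequencing reads. Genomic DNA of male C57Bl/6 mice was sheared, its methylated CpG fraction was captured with the MethylMiner kit, which binds methylated DNA through a methyl-CpG binding protein, and the captured fragments were sequenced. The tissues were the left ventricle, called heart here, and the spleen. Each tissue was sampled on 3 diets: a control diet without resistant starch (4 heart and 4 spleen libraries), a high fibre diet rich in resistant starch (4 and 4), and 100 mM magnesium acetate given in the drinking water (3 and 4). All groups shared the strain, individual housing in 1 room and minipump surgery 3 weeks after the diets began; ages are not in the labels, and neither is what the pumps delivered. Nothing in the labels ties each library to a separate mouse, so each p-value reflects only how these libraries vary.

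Heart muscle is built under a small set of factors that bind each other and the same enhancers. Gata4 and Gata6 are zinc finger proteins, Nkx2-5 and Isl1 are homeodomain proteins, Tbx5 and Tbx20 carry a T-box, Mef2a and Mef2c carry a MADS box, and Hand1 and Hand2 are basic helix-loop-helix proteins. Methyl-CpG capture reads out how much methylated DNA a window yields, which depends on the number of CpG sites in it as well as on their methylation, and it does not measure the genes' RNA. Because whole tissue was used, a change in the share of cells that carry methylated copies and a change in methylation within each cell cannot be told apart.

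The promoters show how unequal the CpG content of these windows can be. RefSeq promoters (build GRCm38.p6, the build that the submitters' notes also name without its patch level) were matched for 6 of the 10 genes. The 250 bases upstream of the annotated start are printed for the matched genes whose windows held reads (for Mef2c, the first and second start). They run 5′ to 3′ on the gene's strand, with every CpG in capitals. CpG counts below are over 300 bases, which add the 50 bases after the start. Isl1, chr13:116309689-116309938, minus strand, had 37 CpG, more than 94.42% of the 32851 RefSeq promoters of that length. Mef2a, chr7:67372859-67373108, minus strand, had 27, and Tbx20, chr9:24774304-24774553, minus strand, had 26. Nkx2-5, chr17:26841566-26841815, minus strand, had 9, close to the median of 7 over all promoters (quartiles 3 and 20). Mef2c has several starts: the first listed promoter, chr13:83503784-83504033, plus strand, had 1 CpG, the second, chr13:83523406-83523655, plus strand, had 10, and the third had 4. Which Mef2c start the deposited window covers is not given in the sources used here.
Isl1: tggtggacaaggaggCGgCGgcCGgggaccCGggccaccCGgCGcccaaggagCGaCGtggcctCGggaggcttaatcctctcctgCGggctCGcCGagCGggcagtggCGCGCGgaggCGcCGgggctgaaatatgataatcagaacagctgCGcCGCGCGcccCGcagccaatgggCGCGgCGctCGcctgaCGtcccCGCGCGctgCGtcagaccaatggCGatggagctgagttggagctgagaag
Mef2a: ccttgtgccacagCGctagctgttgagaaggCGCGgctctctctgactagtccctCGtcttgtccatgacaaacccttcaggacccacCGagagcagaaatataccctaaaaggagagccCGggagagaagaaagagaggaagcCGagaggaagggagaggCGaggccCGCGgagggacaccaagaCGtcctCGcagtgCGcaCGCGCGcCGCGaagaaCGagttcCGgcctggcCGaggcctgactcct
Tbx20: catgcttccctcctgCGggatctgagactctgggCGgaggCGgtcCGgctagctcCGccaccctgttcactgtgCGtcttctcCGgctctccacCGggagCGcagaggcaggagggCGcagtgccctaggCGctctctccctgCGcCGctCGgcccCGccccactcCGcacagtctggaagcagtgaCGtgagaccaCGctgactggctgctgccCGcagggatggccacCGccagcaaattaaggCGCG
Nkx2-5: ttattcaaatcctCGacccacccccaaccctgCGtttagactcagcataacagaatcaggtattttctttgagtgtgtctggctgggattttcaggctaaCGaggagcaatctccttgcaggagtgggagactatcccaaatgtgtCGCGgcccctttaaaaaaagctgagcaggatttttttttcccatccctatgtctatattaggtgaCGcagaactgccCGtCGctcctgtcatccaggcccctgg
Mef2c, the first start: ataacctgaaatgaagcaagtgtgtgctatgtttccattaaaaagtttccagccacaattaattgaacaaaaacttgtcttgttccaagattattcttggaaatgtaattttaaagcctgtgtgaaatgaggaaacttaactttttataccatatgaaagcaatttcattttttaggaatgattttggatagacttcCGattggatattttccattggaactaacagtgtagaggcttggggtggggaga
Mef2c, the second start: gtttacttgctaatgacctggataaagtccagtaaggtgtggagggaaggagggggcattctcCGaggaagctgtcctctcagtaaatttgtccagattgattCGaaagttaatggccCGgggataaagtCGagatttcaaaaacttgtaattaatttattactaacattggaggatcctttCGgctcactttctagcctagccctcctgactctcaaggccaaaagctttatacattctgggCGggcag
In these lines the Isl1 promoter has capitals along its whole length, with 33 CpG in the 250 bases shown, while the first Mef2c promoter has a single pair. Hand2, whose promoter is not printed, had 17 CpG. Gata4, Gata6, Tbx5 and Hand1 were not among the promoters matched.

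The gene spans, from RefSeq on GRCm38.p6, are as follows for the windows with reads. Gata4 (ENSMUSG00000021944) lies on chromosome 14 from 63198914 to 63271712, Nkx2-5 (ENSMUSG00000015579) on chromosome 17 from 26838664 to 26844988 and Tbx5 (ENSMUSG00000018263) on chromosome 5 from 119796514 to 119885220. Tbx20 (ENSMUSG00000031965) lies on chromosome 9 from 24720812 to 24774303, Mef2a (ENSMUSG00000030557) on chromosome 7 from 67231163 to 67376456 and Mef2c (ENSMUSG00000005583) on chromosome 13 from 83504017 to 83667079. Hand1 (ENSMUSG00000037335) lies on chromosome 11 from 57828713 to 57832147 and Isl1 (ENSMUSG00000042258) on chromosome 13 from 116298270 to 116309688. Mef2c has 34 RefSeq transcripts and Isl1 and Hand1 have 1 each, so the start that anchors the Mef2c window is the least certain.

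The libraries held 4.12 to 8.60 M counted reads in heart and 4.36 to 9.87 M in spleen, with a median window count of 26 to 70 in heart and 13 to 29 in spleen. A single window, Gm10800, took 17.3% to 50.05% of the counts of each heart library and 48.2% to 61.2% in spleen. In heart its share was 42.3% ± 5.80 (SD, n = 4) on control diet, 19.1% ± 1.70 (SD, n = 4) on high fibre and 33.8% ± 10.5 (SD, n = 3) on acetate, so that the share moved with the diet groups. High fibre and control heart did not overlap in it (difference -23.2 percentage points; two-sided exact permutation p = 0.02857, the smallest that 4 against 4 allows, and 0.1714 after Benjamini-Hochberg adjustment over 12 such tests). All values below are CPM, read counts relative to the library size, after edgeR's trimmed-mean (TMM) scaling over the 23 libraries, whose factors were 1.91 to 2.04 in high fibre heart and 1.02 to 1.38 in control heart. On this scale the leukocyte marker windows (10 genes) summed to 173 to 204 CPM in control heart and 117 to 135 in control spleen, and the cardiomyocyte marker windows (10 genes) to 230 to 273 and 524 to 663 CPM. On this scale each tissue therefore had the lower sum for the marker list of its own main cells. By edgeR's test at an adjusted p under 0.05, 8 of the 10 cardiomyocyte windows were lower in control heart. The other 2, Pln (log2 difference 1.51) and Actc1 (0.92), were higher. Of the 10 leukocyte windows 7 were higher in control heart and 0 lower. Over all windows 40% were higher and 32.7% lower. Windows with many reads were mostly lower in control heart. In the highest of 10 equal classes by mean CPM, 2.97% were higher and 82.38% lower, with a median log2 difference of -0.79. The endothelial marker windows (8 genes) also had the lower sum in control heart, 94.0 to 106 CPM against 114 to 132 in control spleen. The fibroblast and erythroid sums overlapped between the tissues. The part of read level in the marker differences was not tested. The sums were not computed on library totals. No marker window was at 0 reads in any group.

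No read was counted for Gata6 or Hand2 in any of the 23 libraries. By read sampling alone, a count of 0 allows up to 3 reads. That is 0.0316 CPM over the 11 heart libraries and 0.0505 CPM over the 12 spleen libraries. This bound covers counted reads, and it does not limit the captured DNA if reads at these windows were left out of the counting. Such windows were not rare: 3704 of all 41388 windows (8.949%) had no read in either tissue. Hand2, a factor of the right ventricle and the cardiac neural crest, starts 124 bases from Hand2os1, a gene on the opposite strand. Among protein-coding windows whose nearest other RefSeq start lay within 250 bases, 131 of 1325 (9.89%) had no reads, against 160 of 8613 (1.86%) where it lay beyond 10 kb. How reads in overlapping windows were counted is not given in the sources used here, and its part in the 2 empty windows was not tested.

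The 8 windows with reads spanned a wider range of levels in spleen than in heart. All windows have the same nominal length, so their CPM was not corrected for length. It was not corrected for CpG content either. Windows with 0 to 4 promoter CpG had a median of 4.97 CPM in control heart, and those with 5 to 9 had 11.8. The order of the members is thus an order of captured reads and not of methylation per CpG. In control heart Hand1 was highest at 19.02 CPM ± 3.06 (SD, n = 4), followed by Gata4 at 11.9 ± 0.689, Mef2c at 10.4 ± 1.46 and Mef2a at 7.64 ± 1.93. Isl1 (4.72 ± 0.616), Nkx2-5 (4.56 ± 0.935), Tbx5 (4.08 ± 1.21) and Tbx20 (3.80 ± 1.43) formed the low end. The lowest Hand1 library lay above the highest library of every other member, Gata4 and Mef2c overlapped, and the 4 low windows overlapped one another. Hand1 stood above 85.114% of all windows by its control heart mean and Tbx20 above 40.376%.

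In control spleen the order was different. Isl1 was highest at 19.8 CPM ± 6.32 (SD, n = 4), then Mef2c at 16.3 ± 3.29, Hand1 at 11.3 ± 2.71 and Gata4 at 6.14 ± 1.64, where Isl1, Mef2c and Hand1 overlapped from one to the next. Mef2a (2.08 ± 1.12), Nkx2-5 (1.52 ± 0.557), Tbx5 (0.815 ± 0.680) and Tbx20 (0.309 ± 0.391) followed, each overlapping its neighbour. Tbx20 had no read in 4 of the 12 spleen libraries and Tbx5 none in 1.

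**Figure D1:**
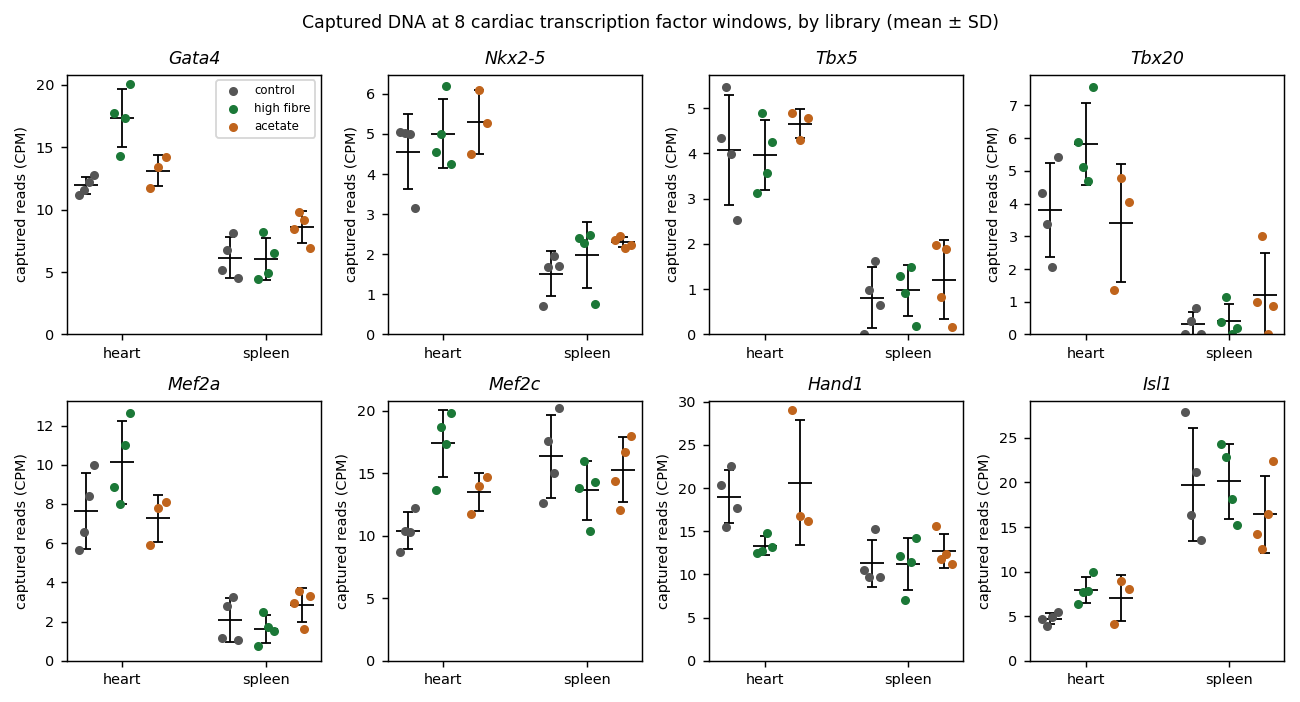
Captured reads (CPM after TMM scaling) at the 8 windows with reads, by tissue and diet; points are libraries, the long bar is the group mean and the whiskers its SD (axes start at 0, so whiskers that pass below 0 are cut). Tbx20, Tbx5, Nkx2-5 and Mef2a were low in every spleen library, Isl1 was low in every heart library, and the 4 high fibre heart libraries lay above the 4 control heart libraries for Gata4, Mef2c and Isl1 and below them for Hand1.

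The comparison of heart with spleen asks where the factors that define heart muscle carry more captured methylated DNA. On control diet 6 of the 8 windows were higher in heart (Tbx20, Tbx5, Mef2a, Nkx2-5, Gata4 and Hand1) and 2 were lower (Mef2c and Isl1) by edgeR's quasi-likelihood test at an adjusted p under 0.05. Against that count, 72.7% of the 33982 windows tested differed between the tissues, 40% higher and 32.7% lower in heart, so a call at a member is common in this comparison. The members' calls were 6 higher and 1 lower on high fibre, where 80.7% of windows were called (45.1% higher and 35.6% lower), and 6 higher and 1 lower on acetate, where 63% were (34% and 29%). The median log2 difference over all windows was 0.20 on control diet. Scaled to library totals in place of TMM, that median moved to 1.10, the members' split to 6 higher and 1 lower, and the split of all windows from 13592 higher and 11116 lower to 23371 and 2067 (high fibre, from 15334 and 12093 to 28958 and 874; acetate, from 11554 and 9856 to 23737 and 1353). On library totals the members' split was 7 higher and 0 lower on both of those diets.

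Isl1, the homeodomain factor that marks progenitors of the second heart field and is little used in adult ventricular muscle, lay farthest toward the spleen. Its 4 control heart libraries gave 4.64, 3.94, 4.86 and 5.43 CPM and its 4 control spleen libraries 28.0, 16.3, 21.2 and 13.5 CPM. The tissues did not overlap, with heart low in every library; non-overlap was seen for 67% of all windows tested, and for 73.7% on high fibre and 47.8% on acetate. The fitted log2 difference was -2.06 (SE 0.22; edgeR adjusted p = 1.17e-09), a 4.16-fold lower level in heart, and only 0.68% of all windows lay lower. Isl1 was lower in heart in 11 of 11 pairs of heart and spleen libraries with the same number in their titles, which the labels do not tie to 1 mouse. Its value was -1.33 on high fibre (edgeR adjusted p = 5.20e-07) and -1.18 on acetate (adjusted p = 7.18e-05), and when libraries were scaled to their totals it changed sign to 0.27 on high fibre, where the median of all windows was 1.84, and lost its call on acetate (-0.20; edgeR adjusted p = 0.483). Its promoter was the most CpG-rich of those printed. Windows with 30 to 67 promoter CpG had a median difference of -0.01 on control diet (quartiles -0.68 and 0.96). Of these windows 34.31% were higher and 36.96% lower in heart. CpG was counted over promoter bases and not over the whole window. The part of CpG content in the Isl1 difference was not tested.

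Tbx20, a T-box repressor and activator needed for chamber maturation, showed the largest difference toward heart. Control heart libraries gave 4.33, 3.39, 2.06 and 5.43 CPM, from 14 to 43 reads each, while control spleen libraries gave 0, 0.422, 0.815 and 0 CPM, from at most 5 reads. No spleen library reached the lowest heart library. The log2 difference was 3.36 (SE 0.64; edgeR adjusted p = 1.57e-05), above 98.34% of all windows, and on high fibre it was 3.73 (SE 0.61; adjusted p = 1.12e-06). On acetate the groups overlapped, because the heart libraries gave 1.37, 4.78 and 4.06 CPM and spleen library 2 gave 3.01 CPM; the difference was 1.59 (SE 0.56; adjusted p = 0.0135) and missed the threshold without heart acetate replicate 2 (largest adjusted p over the libraries left out, 0.0779). Its low spleen counts leave the size of the fold uncertain: the 95% interval on control diet ran from 2.12 to 4.61.

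Tbx5, the T-box factor of the left ventricle and atria, ranged from 2.52 to 5.47 CPM in the 4 control heart libraries and from 0 to 1.63 in control spleen. Mef2a, the main MEF2 factor of the adult heart, ranged from 5.64 to 9.97 CPM in control heart and from 1.07 to 3.26 in control spleen. Nkx2-5, a partner of Gata4 and Tbx5, ranged from 3.156 to 5.04 and from 0.699 to 1.955. None of the 3 overlapped between the tissues on any diet. Their log2 differences on control diet were 2.189 for Tbx5 (SE 0.47), 1.76 for Mef2a (SE 0.29) and 1.54 for Nkx2-5 (SE 0.32), and each was higher in heart in 11 of 11 pairs, although under cyclic loess Nkx2-5 on high fibre turned to -0.17 and Tbx5 on high fibre fell to 0.10 (limma adjusted p = 0.873). With TMM all 3 passed the edgeR test on each diet, with adjusted p of 0.00166 or less; the values on high fibre and acetate were 2.04 and 1.97 for Tbx5, 2.67 and 1.34 for Mef2a, and 1.35 and 1.21 for Nkx2-5.

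These 4 windows are low in reads, and low windows as a class were higher in heart. When the windows were ordered by mean CPM and cut into 10 equal classes, the class that holds Nkx2-5, Tbx5 and Tbx20 had a median log2 difference of 1.70 on control diet. Nkx2-5 lay above 44.79% of that class, Tbx5 above 70.66% and Tbx20 above 97.88%, with Mef2a above 73.16% of the next class, whose median was 1.00. Nkx2-5 and Tbx5 were thus not far from the middle of comparably covered windows. Of the other members, Hand1 lay above 94.73% of its class (class median -0.48) and Gata4 above 84.2% (class median 0.07). Mef2c lay above 27.63% and Isl1 above 0.74% of the class they shared, whose median was -0.25. After cyclic loess normalization, which removes such a dependence on level, Nkx2-5 on control diet was 0.31 (limma adjusted p = 0.418) and Tbx5 0.87 (adjusted p = 0.109), while Mef2a stayed called at 0.94 (adjusted p = 0.00606) and Tbx20 at 1.4991 (adjusted p = 0.00808). On acetate the same setting left 3 of the 8 members called, Gata4, Hand1 and Isl1.

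Gata4, the zinc finger partner of Nkx2-5 and Tbx5, was higher in heart on every diet without overlap. On control diet it ranged from 11.2 to 12.7 CPM in heart and from 4.51 to 8.15 in spleen, a log2 difference of 0.92 (SE 0.18; edgeR adjusted p = 3.30e-05). The difference was 1.53 (SE 0.18) on high fibre and 0.64 (SE 0.19) on acetate. Hand1, a factor of the left ventricle and outer curvature, was higher in control heart by 0.74 (SE 0.19; adjusted p = 0.000726), with heart at 15.5 to 22.5 CPM and spleen at 9.67 to 15.3. On high fibre the Hand1 groups overlapped and the value was 0.24 (edgeR adjusted p = 0.256), but Hand1 was called under cyclic loess (0.80; limma adjusted p = 0.000187) and on library totals (1.83; edgeR adjusted p = 2.31e-12). On acetate it was 0.66 (adjusted p = 0.00570), a call lost without heart acetate replicate 1 (largest adjusted p over the libraries left out, 0.101), whose 29.02 CPM was the highest Hand1 value of all libraries.

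Mef2c, the MEF2 factor of the early heart and also of B lymphocytes and myeloid cells, had no stable order between the tissues. Control heart gave 8.67, 10.4, 10.3 and 12.2 CPM and control spleen 12.6, 17.6, 14.99 and 20.2, so spleen was higher in every library, with a log2 difference of -0.66 (SE 0.16; edgeR adjusted p = 0.000565) that became 0.24 on library totals. On high fibre heart was higher by 0.35 (SE 0.16; adjusted p = 0.0451), with overlap. That call was lost without any one of 9 libraries (heart control replicates 2 and 3, heart high fibre replicates 2, 3 and 4, heart acetate replicate 2, and spleen high fibre replicates 1, 3 and 4; largest adjusted p 0.166). Cyclic loess (0.89; limma adjusted p = 2.67e-05), DESeq2 (0.52; adjusted p = 0.00361) and library totals (1.95) gave larger values for the same comparison. On acetate the value was -0.18 (adjusted p = 0.386), and 0.80 on library totals. Heart was higher in 4 of 11 pairs. With cyclic loess the calls among the 8 windows on control diet were 4 higher and 1 lower, Mef2c being one of those lost.

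**Figure D2:**
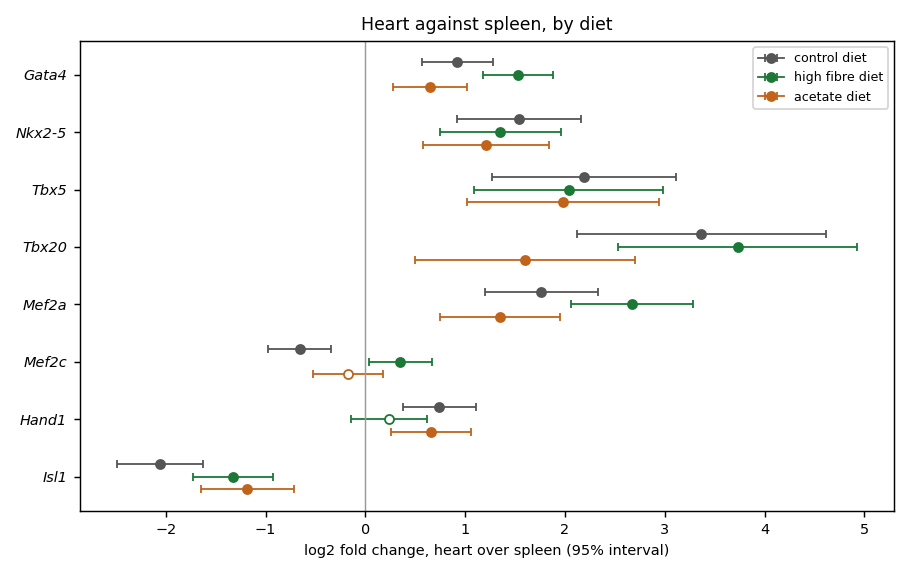
Log2 fold change of heart over spleen for each factor on each diet, with 95% intervals by a normal approximation to the edgeR fit. Filled points passed an adjusted p under 0.05 and open points did not. Tbx20, Tbx5, Mef2a, Nkx2-5 and Gata4 lay to the right on all 3 diets (under cyclic loess on high fibre Nkx2-5 turns to -0.17 and Tbx5 falls to 0.10), Isl1 lay to the left (turning to 0.27 on high fibre when scaled to library totals), and Mef2c changed side between control and high fibre.

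The high fibre diet was set against the control diet in heart to ask whether more resistant starch in the feed moved captured methylation there. Gata4, Mef2c and Isl1 were higher on high fibre and Hand1 was lower, by edgeR's quasi-likelihood test at an adjusted p under 0.05, which makes 4 of the 8 windows. Across all 33562 windows tested 26.2% were called, 12.6% higher and 13.6% lower, and 33.9% did not overlap between the groups. The median log2 change over all windows was 0.02 after TMM scaling, which assumes that most windows do not change. On library totals that median was 0.71, so the calls are relative to the scaling chosen. The share of Gm10800 moved with these groups (19.1% on high fibre and 42.3% on control); its part in the 4 calls was not tested directly, and a fit with 1 surrogate variable, an estimated hidden factor, called none of the 8.

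Mef2c had the smallest adjusted p of the 4. Control heart gave 8.67, 10.4, 10.3 and 12.2 CPM, high fibre heart 13.7, 18.7, 17.3 and 19.9, and acetate heart 11.8, 13.99 and 14.7. All 4 high fibre libraries exceeded all 4 controls. The log2 change was 0.76 (SE 0.14; edgeR adjusted p = 0.00495), a 1.69-fold higher level, and it lay between 0.67 and 0.85 with each library left out, past the threshold every time. Among windows of the same abundance class, where the median change was -0.21, Mef2c lay above 99.58%. Cyclic loess gave 0.90 (limma adjusted p = 0.00396) and the surrogate variable fit 0.54 (edgeR adjusted p = 0.0795).

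Gata4 rose in the same libraries. Control heart gave 11.2, 11.6, 12.2 and 12.7 CPM, high fibre heart 17.7, 14.3, 17.3 and 20.04, and acetate heart 11.8, 13.4 and 14.2. High fibre did not overlap control. The log2 change was 0.55 (SE 0.12; edgeR adjusted p = 0.00712), a 1.47-fold higher level above 98.51% of its class, and the call was kept with each of the 11 libraries left out. Cyclic loess gave 0.70 (limma adjusted p = 0.00575), and the surrogate variable fit gave 0.41 (edgeR adjusted p = 0.210).

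Isl1 rose from a low level. Control heart gave 4.64, 3.94, 4.86 and 5.43 CPM, high fibre heart 6.35, 7.74, 7.81 and 9.93, and acetate heart 4.12, 8.97 and 8.02. Every high fibre library was above every control, and acetate was split between the levels of both. The log2 change was 0.78 (SE 0.20; edgeR adjusted p = 0.0119), above 97.97% of its class, and it fell to 0.65 without high fibre replicate 4, which ended the call (adjusted p = 0.0617). Cyclic loess gave 0.59 (limma adjusted p = 0.0445) and the surrogate variable fit 0.29 (edgeR adjusted p = 0.659).

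Hand1 was the one member that was lower. Control heart gave 20.4, 15.5, 22.5 and 17.7 CPM, high fibre heart 12.5, 12.7, 14.9 and 13.2, and acetate heart 29.02, 16.7 and 16.1. High fibre lay below both other groups without overlap. The log2 change was -0.50 (SE 0.16; edgeR adjusted p = 0.0294), a 1.41-fold lower level, but Hand1 lay above 11.59% of its own class, whose median was -0.21. The call was lost without control replicate 1 or 3 or high fibre replicate 1, 2 or 4 (largest adjusted p 0.1003) and under cyclic loess (-0.29; limma adjusted p = 0.140) and the surrogate variable fit (-0.10; edgeR adjusted p = 0.821), and the sign turned to 0.21 on library totals, where the median of all windows was 0.71.

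The other 4 windows did not pass the edgeR test. Tbx20 ranged from 2.06 to 5.43 CPM on control diet and from 4.70 to 7.56 on high fibre (log2 change 0.60, SE 0.28, adjusted p = 0.108). Mef2a ranged from 5.64 to 9.97 and from 7.98 to 12.7 (0.45, SE 0.18, adjusted p = 0.0632). Nkx2-5 (0.14, SE 0.21) and Tbx5 (-0.05, SE 0.25) were within the spread of the libraries, with 95% intervals of -0.27 to 0.56 and -0.53 to 0.43. On library totals the split among the 8 windows was 6 higher and 0 lower, and over all windows 24612 higher and 14 lower, against 4227 and 4559 with TMM.

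**Figure D3:**
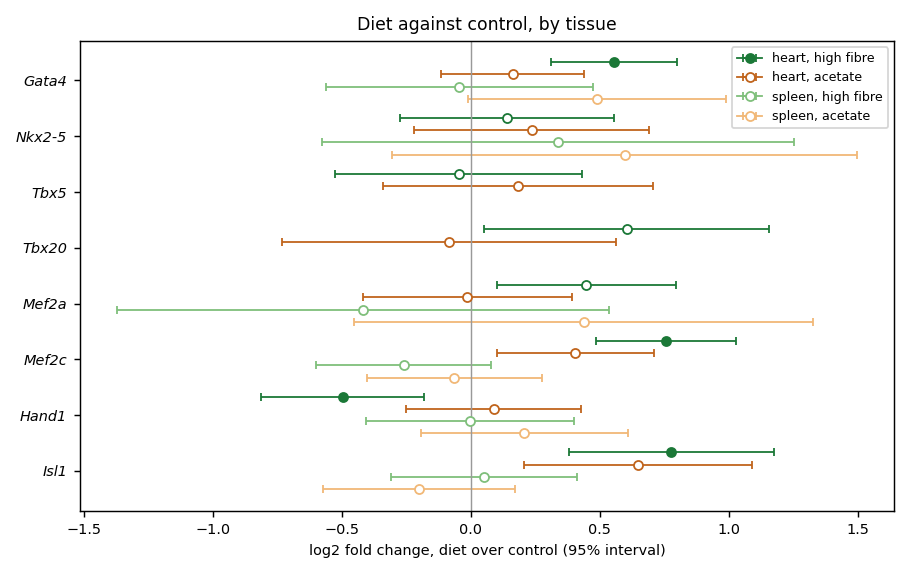
Log2 fold change of each diet over control in heart and in spleen, with 95% intervals by a normal approximation to the edgeR fit. Filled points passed an adjusted p under 0.05 and open points did not. Tbx5 and Tbx20 were too low to be tested in spleen. The filled points are Gata4, Mef2c and Isl1 to the right and Hand1 to the left in high fibre heart (Hand1 turns to 0.21 on library totals).

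**Figure D4:**
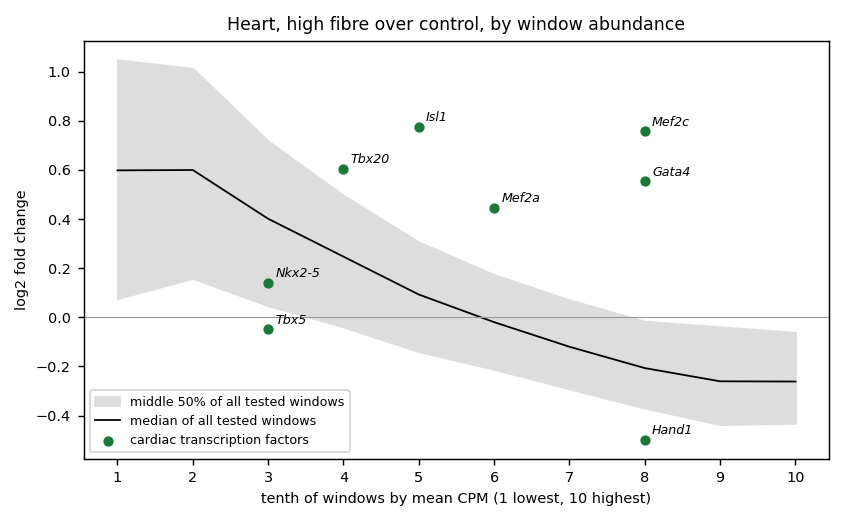
Log2 fold change of high fibre over control in heart against abundance, with all tested windows cut into 10 equal classes by mean CPM; the line is the median of each class, the band its middle 50% and the points are the 8 factors. Mef2c, Gata4, Isl1, Mef2a and Tbx20 lie above the band, the last 2 without passing the test. Hand1 lies below it in a class whose median is -0.21. Tbx5, which did not pass the test, lies below it in a class whose median is 0.40.

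**Figure D5:**
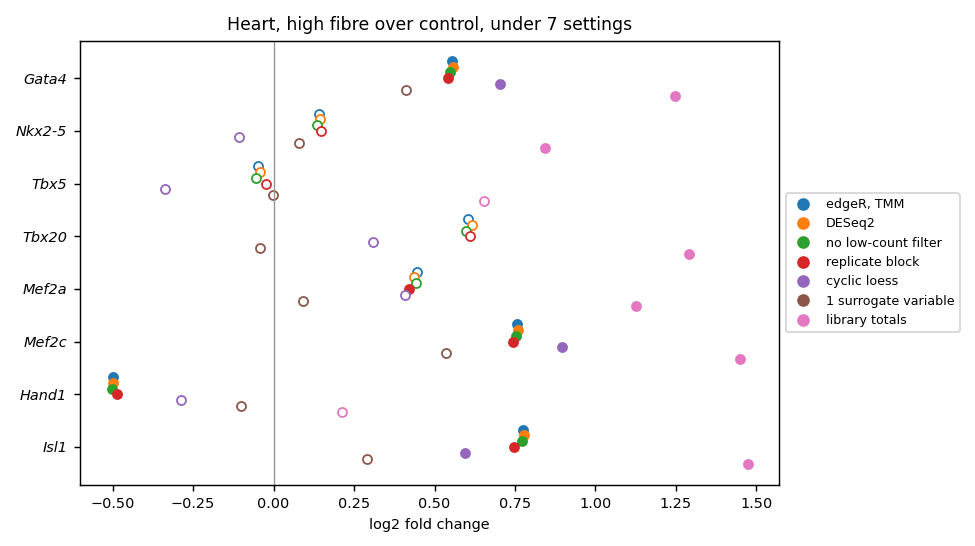
Log2 fold change of high fibre over control in heart for each factor under 7 settings; filled points passed an adjusted p under 0.05 and open points did not. Mef2c, Gata4 and Isl1 stay to the right of 0 in all 7 settings, and Hand1 moves from -0.50 with TMM to 0.21 on library totals.

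Related gene lists held windows called in both directions, beside 26.2% called over all windows. Of a list of 56 further cardiac transcription factors and cofactors, 52 were tested, 6 were higher and 6 lower on high fibre (23.1%, median log2 change 0.02). The higher ones included Shox2, a sinus node factor (1.30), and Jarid2 (0.59), and the lower ones Prrx2 (-0.53), Zfpm1, a Gata cofactor (-0.66), and Sall4 (-0.67). Of 41 relatives of the 10 factors, 38 were tested, 7 were higher and 7 lower (36.8%, median 0.05), among them Twist1 (1.13), Tbx22 (0.98) and Tbx15 (0.50) on one side and Scx (-0.91), Gata1 (-0.52) and Tcf23 (-0.45) on the other. Of 32 genes that the factors regulate in heart 31.2% were called (median -0.20): 2 were higher, Pln, which inhibits the calcium pump (1.51), and Fgf10 (0.55), and 8 were lower, among them Acta1 (-0.56), Myl3 (-0.54) and Tnni3 (-0.60), which are sarcomere genes. Of 30 blood transcription factors 2 were higher (Ebf1 0.42, Tal1 0.81) and 9 were lower (36.7%, median -0.04).

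Some windows of each cell marker list were called in this comparison as well. Over all windows 26.2% were called, 12.6% higher and 13.6% lower, and 33.9% did not overlap between the groups. The shares called were 50% (fibroblast), 60% (leukocyte), 40% (cardiomyocyte), 42.9% (erythroid) and 12.5% (endothelial). In the highest of the 10 abundance classes 4.26% of windows were higher and 41.29% lower. Of the 8 fibroblast marker windows 4 were higher on high fibre and none lower, led by Col3a1 (1.04), Postn (0.42) and Dcn (0.61), and the list summed to 163 to 181 CPM on high fibre against 130 to 148 on control. Of the 10 leukocyte marker windows 2 were higher and 4 lower, with sums of 150 to 175 CPM against 173 to 204. Of the 10 cardiomyocyte marker windows 1 was higher and 3 lower, with sums of 228 to 256 CPM against 230 to 273. Of the 7 erythroid marker windows tested none was higher and 3 were lower, Slc4a1 (-0.45), Klf1 (-0.56) and Epor (-0.41), and the list of 8 summed to 54.4 to 62.4 CPM against 70.3 to 72.9, without overlap. Of the 8 endothelial windows 1 was lower, Cdh5 (-0.39), with sums of 85.8 to 99.98 CPM against 94.0 to 106. Their part in the changes at Gata4, Mef2c, Isl1 and Hand1 was not tested.

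Acetate, a short-chain fatty acid that gut bacteria make from fibre, was compared with the control diet in heart. None of the 8 factors was called, and neither was any of the 33562 windows (0%; 840 had an unadjusted p under 0.05, and DESeq2 also called 0). No factor's groups failed to overlap, as 3.15% of windows did. Isl1 (0.65, SE 0.23, unadjusted p = 0.00844 from edgeR) and Mef2c (0.41, SE 0.16, unadjusted p = 0.0160) had the largest values, both with an adjusted p of 1.00. The others were 0.24 for Nkx2-5, 0.18 for Tbx5, 0.16 for Gata4, 0.09 for Hand1, -0.01 for Mef2a and -0.08 for Tbx20. Acetate replicate 1 stood apart: it had the lowest median window count of the heart libraries, 26, the lowest Gata4, Mef2c, Mef2a, Nkx2-5, Tbx20 and Isl1 of its group and the highest Hand1. Without it Isl1 was called (edgeR adjusted p = 0.0144) with 684 windows over all.

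High fibre and acetate heart were also set against each other, both of these contrasts sharing libraries with those above. No factor passed the edgeR test, against 1.38% of all windows (0.188% higher and 1.19% lower), though 5 of the 8 had an unadjusted p under 0.05, beside 9105 of the 33562 windows. Hand1 was lower on high fibre by -0.59 (SE 0.18; edgeR adjusted p = 0.0618) and Gata4 higher by 0.39 (SE 0.14; adjusted p = 0.0856), both without overlap, as were 21.2% of windows. Hand1 passed with DESeq2 (-0.61; adjusted p = 0.0215), and without acetate replicate 2 or 3 (smallest adjusted p 0.0147). The other values of high fibre over acetate were 0.69 for Tbx20, 0.46 for Mef2a, 0.35 for Mef2c, 0.13 for Isl1, -0.09 for Nkx2-5 and -0.23 for Tbx5, with edgeR adjusted p from 0.136 to 0.803.

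In spleen no factor and none of the 24871 windows tested was called by edgeR in any of the 3 diet comparisons (0% each; 502, 872 and 823 windows at an unadjusted p under 0.05 for high fibre against control, acetate against control and high fibre against acetate). DESeq2 called 0, 1 and 0 windows in the same order, and no factor had an unadjusted p under 0.05. For Mef2c, which had the narrowest interval, high fibre minus control was -0.26 (95% interval -0.60 to 0.08) and acetate minus control -0.06 (-0.40 to 0.27). Isl1 gave 0.05 (-0.31 to 0.41) on high fibre, where its libraries ranged from 15.2 to 24.4 CPM against 13.5 to 28.0 on control, and -0.20 (-0.57 to 0.17) on acetate. Gata4 gave -0.04 (-0.56 to 0.47) on high fibre and 0.49 (-0.01 to 0.99) on acetate, with acetate libraries at 8.48, 9.84, 9.17 and 6.90 CPM and controls at 5.13, 6.76, 8.15 and 4.51. Hand1 gave 0.00 (-0.41 to 0.40) on high fibre and 0.21 (-0.19 to 0.61) on acetate. For high fibre against acetate, Gata4 was -0.53 (-1.05 to -0.02) and Mef2a -0.86 (-1.80 to 0.09), the values farthest from 0, both with an edgeR adjusted p of 1.00. The Gata4 interval leaves out 0 although its unadjusted edgeR p was 0.0513, because the intervals use a normal approximation. In that comparison Isl1 was 0.25, Mef2c -0.20, Hand1 -0.21 and Nkx2-5 -0.26. Nkx2-5 and Mef2a rest on 3 to 20 reads a library and their intervals were wider, up to -1.37 to 0.54 for Mef2a on high fibre (-0.42), with 0.44 for Mef2a on acetate and 0.34 for Nkx2-5 on high fibre. Nkx2-5 on acetate, at 2.16 to 2.46 CPM, did not overlap control at 0.699 to 1.955 (0.60, edgeR adjusted p = 1.00), as was so for 3.04% of windows; no other factor was without overlap in a spleen diet comparison, where the background was 1.67% for high fibre against control and 2.43% for high fibre against acetate.

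Whether the high fibre effect differed between heart and spleen was tested as an interaction over all 23 libraries. No factor passed the edgeR test, against 0.0559% of windows (0.0177% higher and 0.0383% lower), and 3 of the 8 had an unadjusted p under 0.05, beside 5571 of the 33982 windows. Mef2c came closest: its change was larger in heart by 1.01 (SE 0.23; edgeR unadjusted p = 8.36e-05, adjusted p = 0.0861), and DESeq2 called it (1.06; adjusted p = 0.0131). Isl1 differed by 0.73 (SE 0.30; edgeR adjusted p = 0.246), Gata4 by 0.61 (SE 0.26; adjusted p = 0.253) and Hand1 by -0.50 (SE 0.27; adjusted p = 0.342). Mef2a differed by 0.91 (SE 0.46), Tbx20 by 0.37 (SE 1.09), Tbx5 by -0.15 (SE 0.72) and Nkx2-5 by -0.19 (SE 0.46). The edgeR test thus did not separate the heart from the spleen response at the 4 windows called in heart. For acetate no window passed the interaction test (0%; 1553 at an unadjusted p under 0.05), the largest member value being -1.77 (SE 0.94) for Tbx20, on few spleen reads, followed by Isl1 (0.87, SE 0.33) and Mef2c (0.49, SE 0.24). Mef2a (-0.42), Nkx2-5 (-0.33), Gata4 (-0.28), Tbx5 (-0.21) and Hand1 (-0.08) were nearer to 0.

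Within the heart libraries the windows whose log2 CPM followed Mef2c most closely among 19380 candidates were Olfr800, Cyp2j7-ps3 and Epb4.1l5 (Pearson r 0.96 each, 11 libraries), and those that followed Hand1 were Lmf1 (0.98), Hhatl (0.98) and Smtn (0.97). In the 12 spleen libraries they were Tbc1d20 (0.94), Upf3a (0.90) and Rab21 (0.88) for Mef2c and Vmn2r67 (0.89), Fam120b (0.86) and Coa6 (0.84) for Hand1. The heart and spleen neighbours were different genes for both factors, and the points share the libraries' depth and scaling.

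The tissue difference was also read in the wider lists on control diet, where 72.7% of all windows were called, 40% higher and 32.7% lower. Of the 52 further cardiac factors tested 22 were higher in heart and 19 lower (78.8%, median log2 0.17, beside 0.20 for all windows), with Tbx18 (2.55) and Id2 (1.83) among the higher and Ankrd1 (-1.65), Hopx (-1.54) and Srf (-1.82) among the lower. Of the 38 relatives 19 were higher and 10 lower (76.3%, near the share of all windows, median 0.61). Twist2 (4.12) and Tbx3 (1.22) were among the higher. Gata2 (-1.65), Tal1 (-1.92) and Scx (-1.47) were among the lower, of which Gata2 and Tal1 act in blood. Of the 32 cardiac targets 8 were higher and 20 lower (87.5%, median -0.47). The myosin and sarcomere genes Mybpc3 (-2.39), Myh6 (-1.73) and Myh7 (-1.52) were lower and Fgf10 (1.07), Hcn4 (1.88) and Nppa (0.78) higher. Of the 30 blood factors 11 were higher and 12 lower (76.7%, near the share of all windows, median 0.04). Lmo2 (1.64), Cebpa (2.16) and Pax5 (0.99) were among the higher, and Gfi1 (-5.79) and Runx1 (-1.77) among the lower.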

How the data were processed

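Left ventricle and spleen DNA of mice on 3 diets was captured for CpG methylation and sequenced (23 libraries). Per the submitters' processing notes, bcl2fastq 2.19.1.403, BWA 0.7.10, featureCounts 1.5.1, edgeR 3.16.5 and build GRCm38 were used. The authors deposited raw read counts per gene window, in 1 table per tissue, without normalization or pooling. Where the 3 kb window lies around the start site, and how multiply mapped reads or overlapping windows were treated, are not given in the sources used here. Counts cover sampling error only, since reads without molecular identifiers are not independent molecules.

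The counts were tested with edgeR 4.0.16 (R 4.3.3): TMM scaling, filterByExpr with a minimum count of 10, group means without covariates, quasi-likelihood tests, and Benjamini-Hochberg adjustment at 5% over all tested windows. Diets were tested within each tissue's table, and tissues and interactions in 1 fit over both tables. The filter kept 8 of the 10 members in the heart and joint fits and 6 in spleen. Alternatives were DESeq2 1.42.0, no filter, library totals, cyclic loess with limma 3.58.1 (prior count 2), 1 surrogate variable from sva 3.50.0, the replicate number as a block, and each library left out. Scripts were tested on simulated counts. Likeness used log2 CPM, with 0.5 added to each read count before scaling.

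The members and gene lists were chosen with earlier results of these data known. All members are named in each comparison in which they were tested. Of each list, up to 3 called genes with the smallest p in each direction were eligible to be named, for the main comparisons. Some genes that this rule selects are not reported here.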

Additional observations from a re-analysis of the deposited data

Results flagged for a closer look

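In groups of 4 libraries, a highest or lowest value was singled out by Dixon's criterion, from its gap to the nearest library relative to the group's range. Of 40 groups of member values examined, 3 met this, where chance gives about 1 in 20. Hand1 in spleen control replicate 3 was 15.3 CPM, the highest of its group, the other three lying between 9.67 and 10.5 CPM. Nkx2-5 in heart control replicate 4 was 3.156 CPM, the lowest of its group, beside 5.01 to 5.04 CPM in the others. Nkx2-5 in spleen high fibre replicate 4 was 0.771 CPM, from 4 reads, beside 2.28 to 2.48 CPM.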

How the results depend on the processing

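Of 1852 member values recomputed under the alternatives, 1788 kept their call or their lack of one, 33 lost a call, 26 gained one and 5 reversed. The 1788 include 55 values that were not called and changed sign. Most of the 1852 come from fits with 1 library left out, which share all other libraries, and many belong to comparisons in which no member was called. The reversals were, on library totals, Hand1 in heart for high fibre against control (0.21) and, for heart against spleen, Mef2c on control (0.24), Isl1 on high fibre (0.27) and Mef2c on acetate (0.80), and, under cyclic loess, Nkx2-5 for heart against spleen on high fibre (-0.17).

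For high fibre against control in heart, the members called were 0 with 1 surrogate variable and 2 to 6 with a library left out, and the windows called were 24626 on library totals, 4021 with cyclic loess, 230 with 1 surrogate variable and 2495 to 14336 with a library left out, against 8786; the lowest came without control replicate 1 and the highest without acetate replicate 1, and control replicate 3 (4707) and high fibre replicates 2 (5679), 3 (5174) and 4 (2592) also moved the count by over 1.5 times. For acetate against control in heart, 17 windows were called with 1 surrogate variable, 0 to 684 with a library left out, and 0 to 1 members. For high fibre against acetate in heart, the members called were 1 with DESeq2, 3 on library totals and 0 to 1 with a library left out, and the windows 2516 with DESeq2, 1256 without a filter, 1882 on library totals, 0 with cyclic loess, 19 with 1 surrogate variable and 0 to 4536 with a library left out, against 462. In spleen, acetate against control had 1 window with DESeq2, 2 without a filter, 1 with cyclic loess, 25 with 1 surrogate variable and 0 to 2 with a library left out; high fibre against acetate had 1 without a filter, 1 on library totals, 7 with 1 surrogate variable and 0 to 3 with a library left out. For heart against spleen, cyclic loess called 5 members on control, 3 on acetate, and 17741 and 13707 windows on high fibre and acetate, against 27427 and 21410. The interaction for high fibre called 1 member with DESeq2 and 4 on library totals, and 110 and 6388 windows, against 19; with a library left out it called 0 to 1 members and 0 to 602 windows. The causes were not tested.

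With the replicate block, the members called were 1 for high fibre against acetate in heart (2284 windows) and 1 for the high fibre interaction (980 windows); 1 window was called for acetate against control in heart and 1 in spleen. The block added Mef2a for high fibre against control in heart (0.42, edgeR adjusted p = 0.0270) and ended Tbx20 for heart against spleen on acetate (1.42, adjusted p = 0.0678). The labels do not say that numbers pair libraries: deviations of same-numbered heart and spleen libraries correlated at -0.12 to 0.38, over 0.1 in 4 of 11 pairs. Depth limits Tbx5 and Tbx20 in spleen, which held 59 and 37 reads in all; why Gata6 and Hand2 held none was not tested.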
